A study of Mus musculus with 18 samples.

Results

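Receptor tyrosine kinases are the 49 genes described here, in 16 families, out of 36047 genes with a listed transcript. They were chosen by symbol from a list of receptors, and each symbol matched 1 gene. A receptor of this class spans the cell membrane, binds a ligand outside the cell and phosphorylates tyrosines inside it, usually after pairing with a second receptor. The phosphorylated tail recruits adaptors that feed the RAS-ERK, PI3K-AKT and PLC-gamma pathways. In lung cancer, Egfr, Met, Alk, Ros1, Ret, Erbb2, Fgfr1 and the Ntrk genes are known as oncogenes when mutated, fused or amplified, and Axl is known in cells with mesenchymal features. Several members, among them Erbb3, Ptk7, Ryk and Ephb6, have a kinase domain with little or no catalytic activity and act through partners.

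The 18 RNA-seq libraries, 3 in each of 6 groups, come from a pair of mouse lung tumour lines with lowered or raised Dstyk, a dual serine/threonine and tyrosine kinase. LLC (Lewis lung carcinoma, from C57BL/6 mice) is labelled lung adenocarcinoma, and UN-SCC679 (from A/J mice) is labelled lung squamous carcinoma. Knockdown cells of each line carried sh3, a single hairpin construct against Dstyk in the TPLKO vector, and their controls carried empty TPLKO. Cells of all 4 of these groups received doxycycline. Overexpressing UN-SCC679 cells carried OE_DSTYKwt, the wild-type kinase in pLENTI6, and their controls carried empty pLENTI6, with no agent listed for either. Each line is a single tumour line, and nothing in the labels ties a replicate to its own culture, so p-values below reflect variation among these libraries that could be technical. In such bulk RNA, fewer cells of a type and less RNA per cell cannot be told apart.

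Libraries held between 40525385 and 46528071 estimated counts. Dstyk (ENSMUSG00000042046.15, chromosome 1 at 132417555 to 132466958 of GRCm38, plus strand) fell from 42.8 ± 2.07 to 23.1 ± 0.790 CPM in LLC with sh3 (CPM, the count scaled to library size with TMM factors; SD, n = 3; log2 -0.89, SE 0.0435; adjusted p = 9.81e-10) and from 36.9 ± 0.931 to 26.2 ± 0.869 CPM in UN-SCC679 (log2 -0.50, SE 0.0401; adjusted p = 5.61e-07). In OE_DSTYKwt cells it was 37.8 ± 0.774 CPM against 31.0 ± 1.39 CPM (log2 0.29, SE 0.0400; adjusted p = 6.41e-04), so each change had the direction its label gives. The raised level was not far above that of the other UN-SCC679 controls. On the per-length scale of TPM it was 11.5 ± 0.152, against 10.2 ± 0.453 with empty TPLKO. Replicate 1 with empty pLENTI6 stood apart from its group: the mean chi-square per gene against the other libraries of that group was 12.2 and 13.8, against at most 5.04 for any other pair. In LLC, 1 of 12 epithelial and 0 of 12 squamous markers reached 1 TPM, the level per transcript length, in all 3 empty-vector libraries, with Epcam at 0.0307, Cdh1 at 0.00427 and Nkx2-1 at 0 TPM. UN-SCC679 with empty TPLKO had 3 and 4 of these markers, with Krt8 at 383 and Sox2 at 29.4 TPM, but Krt5 at 0 and Cdh1 at 0.00779 TPM. Nkx2-1, an alveolar and club cell marker, was at 42.1 TPM there, although this line is the one labelled squamous. Both lines had high Vim (1224 and 2851 TPM), while Ptprc and Cdh5, which define leukocytes and endothelial cells, were at 0.0137 and 0.0392 TPM in LLC and 0.0591 and 0 TPM in UN-SCC679. Other markers of these cell types were not all near 0. Cd68, a leukocyte marker, was at 3.42 TPM in LLC and 2.68 TPM in UN-SCC679. The 10 endothelial markers summed to between 35.4 and 39.8 TPM in LLC and between 4.23 and 5.42 TPM in UN-SCC679.

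Of the 49 receptors, 30 were expressed in at least 1 group, taking at least 1 TPM in all 3 libraries of a group as expressed. LLC expressed 20 receptors (40.8%) with empty TPLKO and 20 with sh3. UN-SCC679 expressed 25 (51.0%) with empty TPLKO, 28 (57.1%) with sh3, 25 with empty pLENTI6 and 25 with OE_DSTYKwt. Among all protein-coding genes the share expressed was between 48.5% and 50.8%. In all 6 groups 17 receptors were expressed: Egfr, Erbb2, Fgfr1, Pdgfra, Met, Axl, Tyro3, Igf1r, Insr, Ryk, Ddr1, Ddr2, Ptk7, Epha2, Ephb3, Ephb4 and Ephb6. Ror1, Epha4, Epha7 and Ephb2 were expressed in every UN-SCC679 group and in no LLC group, and Ror2 the reverse. Much of the Epha4 TPM came from transcripts not annotated as protein-coding. Their share was 58.8% ± 26.7 with empty TPLKO and 83.5% ± 8.89 with sh3 (SD, n = 3). It was 59.9% ± 23.4 with empty pLENTI6 and 37.5% ± 12.1 with OE_DSTYKwt. Fgfr2, Fgfr3, Pdgfrb, Csf1r, Flt1, Mertk, Ntrk3 and Epha1 were expressed in some groups of a line and not in others; Fgfr2 in LLC with sh3, for example, was at 1.11, 1.21 and 0.810 TPM.

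The other 19 receptors did not reach the limit in any group: Erbb3, Erbb4, Fgfr4, Kit, Kdr, Flt4, Mst1r, Insrr, Ntrk2, Ret, Tek, Tie1, Alk, Ltk, Ros1, Musk, Epha3, Epha5 and Ephb1. Their highest level in any library was 0.50 TPM, and 13 of them had at most 10 counts in every library. They include Alk, Ros1 and Ret, known from lung cancer fusions, and Kdr and Tek, the main VEGF and angiopoietin receptors of endothelial cells. Ros1 was listed at 0 TPM in every LLC library and had a mean of at most 0.0134 TPM in the UN-SCC679 groups. Alk was listed at 0 in LLC and reached 0.167 ± 0.0509 TPM in UN-SCC679 with OE_DSTYKwt and 0.140 ± 0.0181 TPM with empty pLENTI6 (SD, n = 3).

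A few receptors made up most of the receptor RNA. The 49 genes summed to 861 ± 11 TPM in LLC with empty TPLKO and 1103 ± 22.1 TPM in UN-SCC679 with empty TPLKO, and the 5 highest genes gave 78.9% and 67.4% of these sums. In LLC the order began with Ddr2, a collagen receptor, at 200.1 ± 4.11 TPM, then Fgfr1 at 174 ± 8.11 and Axl, the Gas6 receptor, at 156 ± 6.89 TPM. Ryk, a Wnt-binding receptor, followed at 80.3 ± 3.18 TPM and the ephrin-A receptor gene Epha2 at 68.9 ± 0.351 TPM. In UN-SCC679, Axl led at 319 ± 14 TPM, then Met, the receptor of hepatocyte growth factor, at 161 ± 2.84 and Ryk at 109 ± 0.828 TPM. Pdgfrb was next at 79.1 ± 1.51 TPM and Epha2 at 75.7 ± 1.42 TPM, close neighbours whose libraries, at 77.7, 80.7 and 79.0 and at 74.3, 75.7 and 77.1 TPM, did not overlap. The heat map of log2(TPM + 1) shows these rows as the brightest.

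**Figure D1:**
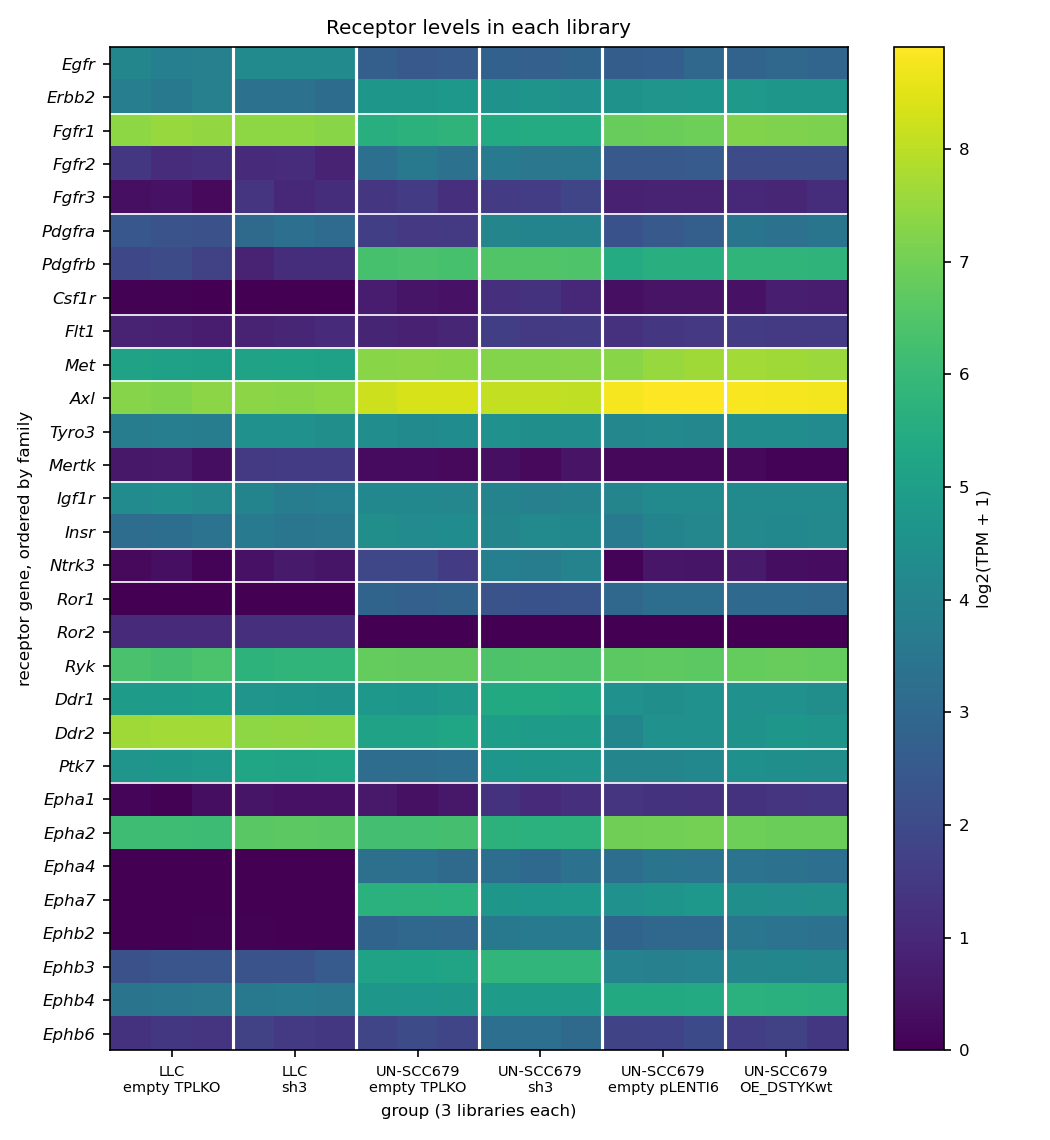
Levels of the 30 receptors expressed in at least 1 group, as log2(TPM + 1), with a row for each gene (ordered by family) and a column for each of the 18 libraries in 6 groups. Axl, Met, Fgfr1, Ddr2, Ryk and Epha2 are bright; Ror1, Epha4, Epha7 and Ephb2 are dark in LLC and Ror2 is dark in UN-SCC679.

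The lines differed in nearly every receptor tested. With empty TPLKO in both, 31 of 32 tested receptors were called at an adjusted p under 0.05 (edgeR's quasi-likelihood test, Benjamini-Hochberg adjusted over all genes), against 82.9% of all 14351 tested genes. UN-SCC679 was higher for 22 of them (42.0% of all genes were higher) and lower for 9 (40.9% lower). Differences of at least 2-fold were called for 22 receptors, against 35.3% of all genes, and the median size of the log2 difference was 1.64, against 0.66 over all genes; Ror2, listed at 0 in UN-SCC679, lies past this median also at its bound given below. Fibroblast markers differed with them, at a summed level between 529 and 539 TPM in LLC and between 5158 and 5404 TPM in UN-SCC679 (Col1a2 at 0.760 and 3706 TPM, Col1a1 at 1.47 and 151 TPM), as did epithelial markers, between 40.9 and 46.8 TPM against between 543 and 568 TPM. Dcn, also a fibroblast marker, went the other way, at 10.3 TPM in LLC and 0.0936 TPM in UN-SCC679. The part of these markers in the differences of Pdgfrb and the other receptors was not tested. Line, strain and tumour of origin cannot be told apart here.

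Of the growth factor receptors, Met was at 117, 118 and 116 CPM in LLC and 574, 576 and 567 CPM in UN-SCC679 (log2 2.29, SE 0.0184; adjusted p = 5.66e-16). Pdgfrb, the receptor of PDGF-B, was at 9.03, 10.1 and 7.65 CPM in LLC and 248, 257 and 251 CPM in UN-SCC679, a 28.3-fold difference. Both genes were far higher in UN-SCC679, with no overlap of libraries. The insulin receptor gene Insr was at 38.0, 36.7 and 39.9 against 92.7, 93.0 and 90.3 CPM (2.41-fold), and Axl at 332, 335 and 328 against 662, 684 and 676 CPM (2.03-fold). The FGF receptor genes differed in opposite directions. Fgfr1 was at 318, 328 and 326 CPM in LLC and 95.5, 98.7 and 104 CPM in UN-SCC679 (log2 -1.70). Fgfr2 was at 2.18, 2.49 and 2.31 against 15.1, 16.6 and 15.4 CPM (6.75-fold higher in UN-SCC679) and Fgfr3 at 0.324, 0.509 and 0.254 against 2.03, 2.34 and 2.24 CPM (6.07-fold). Fgfr1 was still the most abundant of them in both lines, at 51.7 ± 3.47 TPM in UN-SCC679 against 9.54 ± 1.49 TPM for Fgfr2.

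LLC had more Egfr, the EGF receptor gene, at 63.7, 60.1 and 60.2 CPM against 20.2, 19.8 and 19.2 CPM (log2 -1.64). Ddr2 was at 743, 761 and 740.2 CPM in LLC and 139, 141 and 142 CPM in UN-SCC679 (log2 -2.41). Ptk7, a catalytically inactive receptor of planar cell polarity and Wnt signalling, was at 60.3, 63.5 and 66.8 against 19.9, 20 and 21.2 CPM (log2 -1.64). For these 3 genes every LLC library lay above every UN-SCC679 library. Pdgfra was 1.91-fold higher in LLC, whereas Ddr1, Igf1r and Epha2 differed little although they passed the test (log2 -0.19, -0.15 and 0.13), and limma on log2(TPM + 1) lost the Igf1r call (adjusted p = 0.0549). Ntrk3, the neurotrophin-3 receptor gene, was at 0.259, 0.630 and 0.231 CPM in LLC and 4.10, 3.89 and 4.09 CPM in UN-SCC679. The differences of Ntrk3 and Pdgfra are those of UN-SCC679 with empty TPLKO. With empty pLENTI6, Ntrk3 was at 0.310 ± 0.218 TPM in UN-SCC679, against 0.165 ± 0.113 TPM in LLC with empty TPLKO. Pdgfra was at 4.58 ± 0.830 TPM, against 3.94 ± 0.372 TPM in LLC. These groups were not tested against each other. Flt1 passed the test by little (log2 0.36, SE 0.151; adjusted p = 0.0425) and lost the call in 9 of 13 alternatives, among them leaving out LLC replicate 2 or 3 or UN-SCC679 replicate 1 or 3 (adjusted p up to 0.158). Mertk, low in both lines (0.938 ± 0.273 and 0.466 ± 0.0619 CPM), lost it without LLC replicate 1 (adjusted p up to 0.0921 over the alternatives).

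Ephrin receptors, which signal between touching cells, included 3 genes at or near 0 in LLC. Epha7 had 3 counts in the 3 LLC libraries together and 18069 in UN-SCC679, a ratio of 6048 (95% exact binomial interval 2069 to 29332, counting error only). Per library it was at 0.00, 0.0242 and 0.0462 CPM in LLC and 142, 142 and 139 CPM in UN-SCC679. Epha4 was at 0.0864, 0.00 and 0.00 against 26.2, 28.3 and 26.1 CPM and Ephb2 at 0.0648, 0.121 and 0.231 against 19.5, 21.6 and 20.9 CPM. For none of the 3 did the libraries overlap. Ephb3 was at 7.91, 7.80 and 8.41 against 80.4, 79.6 and 83.4 CPM (10.1-fold) and Ephb4 at 22.3, 23.3 and 24.7 against 58.0, 57.7 and 57.8 CPM (2.47-fold), again higher in UN-SCC679. Summed over the 11 ephrin receptor genes, the level was 85 ± 0.880 TPM in LLC and 205 ± 2.59 TPM in UN-SCC679 (SD, n = 3).

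The paired receptors Ror1 and Ror2, which bind Wnt5a, were split between the lines. Ror1 (ENSMUSG00000035305.5, chromosome 4 at 100095791 to 100444765 of GRCm38, plus strand) had 2 counts in LLC and 2643 in UN-SCC679, a ratio of 1327 (95% interval 367 to 10964), and Ror2 (ENSMUSG00000021464.14, chromosome 13 at 53109312 to 53286124 of GRCm38, minus strand) had 334 counts in LLC and 0 in UN-SCC679, at least 111-fold higher in LLC with 3 counts per group as the floor. Ror1 was at 21.7, 19.4 and 20.8 CPM in UN-SCC679, and Ror2 was at 2.51, 2.54 and 2.61 CPM in LLC, which is near the limit of 1 TPM (1.12, 1.13 and 1.15 TPM). Their promoters are shown because the genes are expressed in opposite lines. The 250 bases before each start, from RefSeq on GRCm38.p6 (chr4:100095541-100095790, plus strand, and chr13:53286125-53286374, minus strand), are printed 5′ to 3′ with GC boxes (GGGCGG or CCGCCC) and AP-1 motifs (TGANTCA with C or G at N) in capitals:
Ror1: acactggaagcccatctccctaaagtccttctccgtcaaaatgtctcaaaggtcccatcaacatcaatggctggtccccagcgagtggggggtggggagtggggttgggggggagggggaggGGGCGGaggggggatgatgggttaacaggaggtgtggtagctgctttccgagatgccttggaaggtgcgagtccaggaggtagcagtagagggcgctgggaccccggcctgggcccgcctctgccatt
Ror2: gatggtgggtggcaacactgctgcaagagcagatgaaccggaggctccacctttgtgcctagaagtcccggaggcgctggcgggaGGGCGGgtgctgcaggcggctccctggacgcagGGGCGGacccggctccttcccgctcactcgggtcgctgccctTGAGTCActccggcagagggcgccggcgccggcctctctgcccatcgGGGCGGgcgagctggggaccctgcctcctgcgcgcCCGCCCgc
The Ror1 window held 1 GC box, no AP-1 motif and 8 CpG dinucleotides, and the Ror2 window held 4 GC boxes, 1 AP-1 motif and 24 CpG. Among all 32851 promoter windows of this length, 32.7% held a GC box and 4.46% an AP-1 motif, and the median number of CpG was 6. Promoters of 41 of the 49 receptors were matched, in 48 windows, of which 68.8% held a GC box and 6.25% an AP-1 motif, with a median of 15.5 CpG. The 18 windows of the receptors expressed in no group had the same median of 15.5 CpG, and the 18 windows of those expressed in all 6 groups a median of 13.

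**Figure D2:**
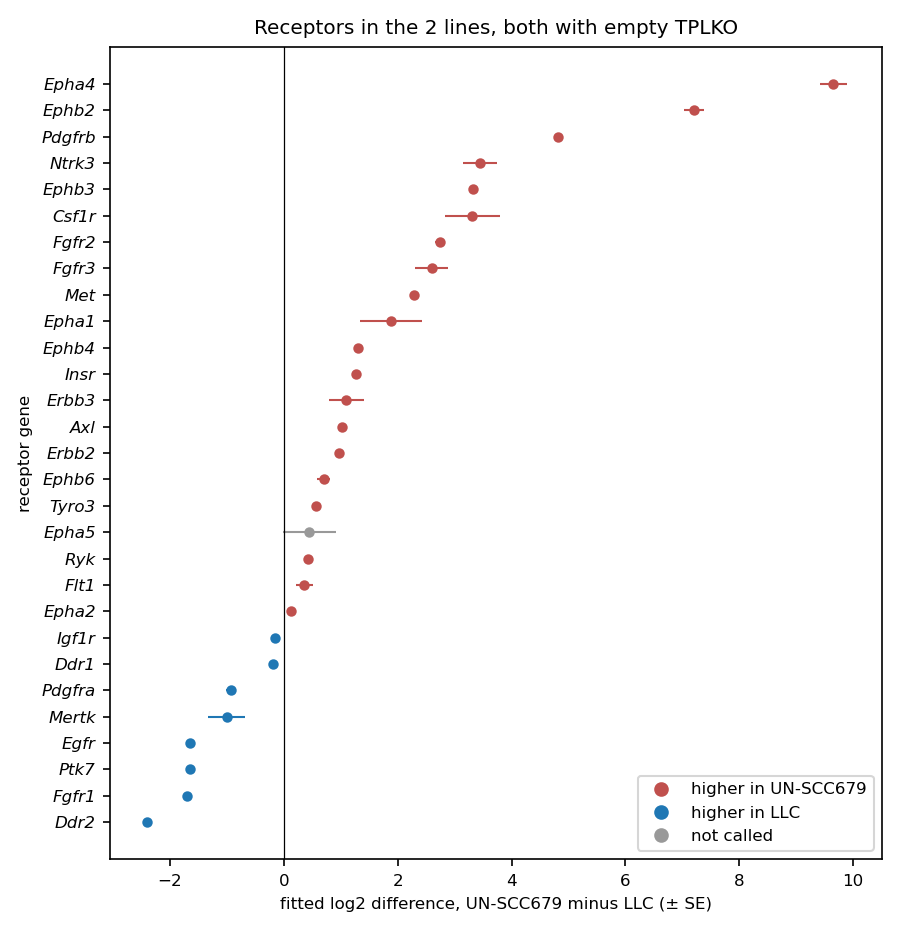
Fitted log2 difference of receptors between UN-SCC679 and LLC, both with empty TPLKO (x axis, points with SE, 3 libraries per line), for the tested genes with over 3 counts in each line. Epha4, Ephb2, Pdgfrb, Ntrk3 and Ephb3 lie far to the right, higher in UN-SCC679, and Ddr2, Fgfr1, Egfr and Ptk7 to the left.

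In LLC with sh3, receptors of several families differed from empty TPLKO: Pdgfra, Mertk, Fgfr3, Tyro3, Epha2 and Ptk7 rose, and Pdgfrb, Fgfr2, Erbb2, Ryk and Ddr2 fell. Of 27 receptors tested, 23 were called (72.6% of all 13767 genes were), 16 higher (36.2%) and 7 lower (36.4%), with a median log2 change of 0.22. Changes of at least 2-fold were called for 6 receptors (12.2% of all genes), 5 of them rises. The median size of change was 0.37 over the receptors and 0.35 over all genes. The groups did not overlap for 24 receptors, against 76.0% of all genes. Fgfr1, Ntrk3, Ror2 and Epha5 were not called, and 22 members had too few counts to be tested.

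Pdgfra (ENSMUSG00000029231.15, chromosome 5 at 75152292 to 75198215 of GRCm38, plus strand), the receptor that binds PDGF-A, -B and -C, was at 13.5, 14 and 11.9 CPM in the LLC controls and 26.8, 26.5 and 26.5 CPM with sh3 (log2 1.01, SE 0.0569; adjusted p = 3.67e-09). Pdgfrb moved the other way, from 9.18, 10.3 and 7.81 to 2.83, 4.09 and 4.12 CPM (log2 -1.3, SE 0.143; adjusted p = 2.75e-06). The libraries of the groups did not overlap for either gene. In the TAM family, whose members bind Gas6 and Protein S, Mertk (ENSMUSG00000014361.5, chromosome 2 at 128698956 to 128802894 of GRCm38, plus strand) went from 1.14, 1.08 and 0.637 to 4.85, 5.20 and 5.06 CPM (log2 2.39, SE 0.187; adjusted p = 9.72e-08). Tyro3 rose from 30.5 ± 0.908 to 50.2 ± 1.29 CPM (1.65-fold) and Axl from 338 ± 3.11 to 373 ± 3.56 CPM (1.11-fold), so all 3 members were higher. Fgfr3 was at 0.329, 0.518 and 0.260 CPM and, with sh3, 2.04, 1.46 and 1.87 CPM (log2 2.27, SE 0.300; adjusted p = 1.57e-05), low in both groups. Fgfr2 fell from 2.37 ± 0.161 to 1.28 ± 0.374 CPM (log2 -0.89), a call that was lost with protein-coding transcripts only or with limma on log2(TPM + 1) (adjusted p up to 0.101).

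Among ephrin receptors of LLC, Epha2 rose from 156, 155 and 157 to 226, 231 and 229 CPM (log2 0.55, SE 0.0173; adjusted p = 1.68e-11). Ephb3, Ephb4 and Ephb6 rose 1.20-fold, 1.11-fold and 1.29-fold. Ptk7 went from 61.2, 64.6 and 68.2 to 95.1, 92.4 and 94.4 CPM (log2 0.54, SE 0.0349; adjusted p = 1.47e-08), with no overlap. Ryk fell from 129 ± 4.40 to 89.4 ± 2.32 CPM (log2 -0.53) and Erbb2, the ligandless partner of the EGF receptor family, from 35.9 ± 3.32 to 24.1 ± 1.63 CPM (log2 -0.57). Both collagen receptors fell, Ddr2 from 761 ± 11.1 to 617 ± 7.43 CPM and Ddr1 from 61.6 ± 2.63 to 51.0 ± 1.38 CPM. The insulin receptor family split, with Insr higher (log2 0.32) and Igf1r lower (log2 -0.25). Egfr and Met changed little, by 1.12-fold and 1.09-fold upward. Erbb3 and Epha1, both under 1 TPM, were called higher (log2 2.14 and 1.59), and Flt1 was called at log2 0.41. Leaving out a library ended 3 calls: Epha1 without control replicate 1, Flt1 without replicate 3 of either group, and Ephb4 without control replicate 1 or sh3 replicate 2 (adjusted p up to 0.0615, 0.0749 and 0.138 over the alternatives). With limma on log2(TPM + 1) the calls of Met, Axl, Ephb3 and Ephb6 were lost too (adjusted p = 0.334, 0.119, 0.578 and 0.121). The summed level of 10 mesenchymal markers was between 4401 and 4517 TPM in the LLC controls and between 2528 and 2545 TPM with sh3. Vim, among them, went only from 1224 to 1099.7 TPM. Alveolar and club cell markers summed to between 17.4 and 19.4 TPM and then between 32.7 and 34.5 TPM. The part of these markers in the receptor changes was not tested.

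In UN-SCC679 with sh3, Pdgfra, Ntrk3, Ephb6, Csf1r, Ptk7, Epha1, Flt1 and Erbb3 each rose at least 2-fold, and no called receptor fell that far. Of 31 receptors tested, 28 were called (63.8% of all 14271 genes), 17 higher (31.8%) and 11 lower (32.0%), with a median log2 change of 0.20. The 8 changes of at least 2-fold compare with 10.3% of all genes, and the median size of change was 0.56 against 0.26. Groups did not overlap for 27 receptors (68.2% of all genes). Mertk, Epha4 and Epha5 were not called, and 18 members were not tested.

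Pdgfra showed the largest change of any tested receptor in the 3 Dstyk comparisons. It was at 7.34, 6.56 and 6.69 CPM with empty TPLKO and 57.0, 57.5 and 54.5 CPM with sh3, 8.21-fold higher (log2 3.04, SE 0.0502; adjusted p = 9.74e-13). On the per-length scale this was 1.93 ± 0.162 to 15.3 ± 0.221 TPM, which is near the levels of Igf1r and Insr with sh3 (14.5 ± 0.754 and 17 ± 1.31 TPM). Pdgfrb, already high, rose 1.11-fold from 255 ± 4.97 to 284 ± 3.43 CPM. Csf1r, the macrophage colony-stimulating factor receptor gene, was at 0.965, 0.820 and 0.599 and then 2.33, 2.49 and 2.92 CPM (log2 1.69, SE 0.225; adjusted p = 3.86e-05). That level was 1.34, 1.49 and 1.04 TPM, just above the limit of expression. Leukocyte markers summed to between 4.87 and 5.51 TPM in the controls and between 7.92 and 13.6 TPM with sh3. Among them, Fcer1g was at 2.08 ± 0.0654 and 6.57 ± 2.08 TPM, Cd68 at 2.68 and 2.74 TPM and Ptprc at 0.0591 and 0.0260 TPM. The part of these markers in the change of Csf1r was not tested.

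Ntrk3 (ENSMUSG00000059146.12, chromosome 7 at 78175959 to 78738012 of GRCm38, minus strand) was at 4.15, 3.94 and 4.15 CPM with empty TPLKO and 27.7, 25.0 and 25.8 CPM with sh3 (log2 2.68, SE 0.0684; adjusted p = 3.15e-11). Ptk7 (ENSMUSG00000023972.10, chromosome 17 at 46564471 to 46629504 of GRCm38, minus strand) went from 20.2, 20.2 and 21.4 to 61.8, 63.4 and 59.8 CPM (log2 1.58, SE 0.0389; adjusted p = 2.44e-11). Both genes had clear gaps between the groups. Ephb6 (ENSMUSG00000029869.7, chromosome 6 at 41605482 to 41620509 of GRCm38, plus strand), an ephrin receptor without kinase activity, went from 5.07, 5.25 and 4.67 to 18.9, 19.0 and 16.8 CPM (log2 1.86, SE 0.0788; adjusted p = 2.01e-09). Flt1, a VEGF receptor gene, was at 3.62, 3.01 and 3.80 and 7.01, 7.31 and 7.73 CPM (log2 1.08, SE 0.108; adjusted p = 3.57e-06), and Epha1 at 1.04, 0.642 and 0.924 and 2.71, 2.07 and 2.33 CPM (log2 1.45, SE 0.232; adjusted p = 1.74e-04). Every sh3 library lay above every control library for these 5 genes. Endothelial markers, Flt1 not among them, summed to between 4.23 and 5.42 TPM in the controls and between 8.21 and 9.59 TPM with sh3, with Cdh5 at 0 and 0.00312 TPM. Erbb3 and Fgfr3 rose 2.04-fold and 1.98-fold at low levels.

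The ephrin receptors of UN-SCC679 moved in both directions. Ephb3 rose from 82.2 ± 2.03 to 133 ± 1.3 CPM (log2 0.69), Ephb2 from 20.9 ± 1.08 to 38.1 ± 0.757 CPM (log2 0.86) and Ephb4 from 58.6 ± 0.109 to 67.5 ± 0.843 CPM (log2 0.20). Epha7 (ENSMUSG00000028289.12, chromosome 4 at 28813131 to 28967499 of GRCm38, plus strand) fell from 144, 144 and 140.4 to 72.1, 75.9 and 76.3 CPM (log2 -0.93, SE 0.0277; adjusted p = 1.00e-10), and Epha2 (ENSMUSG00000006445.3, chromosome 4 at 141301240 to 141329384 of GRCm38, plus strand) fell from 169, 169 and 173 to 117, 117 and 114 CPM (log2 -0.56, SE 0.0225; adjusted p = 1.37e-09). All 4 tested B-type genes were thus higher, while Epha2 and Epha7 were lower, Epha1 was higher and Epha4 was not called (log2 0.05, SE 0.0439; adjusted p = 0.361). Ddr1 rose from 53.6 ± 1.87 to 85 ± 4.08 CPM and Ddr2 fell from 142 ± 1.76 to 118 ± 2.67 CPM. Ror1 fell from 20.9 ± 1.14 to 13.4 ± 0.503 CPM (log2 -0.64) and Ryk from 173 ± 2.90 to 137 ± 1.66 CPM (log2 -0.34). Axl, Fgfr1, Insr, Erbb2, Igf1r and Met fell by less, between log2 -0.30 and -0.06, and Egfr and Fgfr2 rose by log2 0.29 and 0.34. The calls of Met (log2 -0.06) and Tyro3 (log2 0.10) were not stable: each was lost without control replicate 2 or without sh3 replicate 1 or 2, Tyro3 also without control replicate 3 (adjusted p up to 0.945 and 0.174 over the alternatives), and Met came to log2 0.00 when scaled by library size alone, which also ended the call of Igf1r (adjusted p = 0.2). Limma on log2(TPM + 1) lost Egfr, Fgfr2, Fgfr3 and Insr (adjusted p = 0.0874, 0.126, 0.0958 and 0.0632). Fibroblast markers summed to between 5158 and 5404 TPM in the controls and 4761 and 4882 TPM with sh3, but their members moved apart: Postn went from 16.7 to 174 TPM, Col1a1 from 151 to 310.1 TPM and Col1a2 from 3706 to 2727 TPM. Mesenchymal markers summed to between 3631 and 3718 TPM and then between 5204 and 5303 TPM, although Vim, among them, fell from 2851 to 2483 TPM. Epithelial markers summed to between 543 and 568 TPM and then between 342 and 359 TPM (Krt8 at 383 and 247 TPM, Krt18 at 174 and 99.6 TPM). Squamous markers summed to between 111 and 119 TPM and then between 121 and 123 TPM, with Trp63 at 0.907 and 5.98 TPM and Krt14 at 3.41 and 16.3 TPM. The part of these markers in the receptor changes was not tested.

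**Figure D3:**
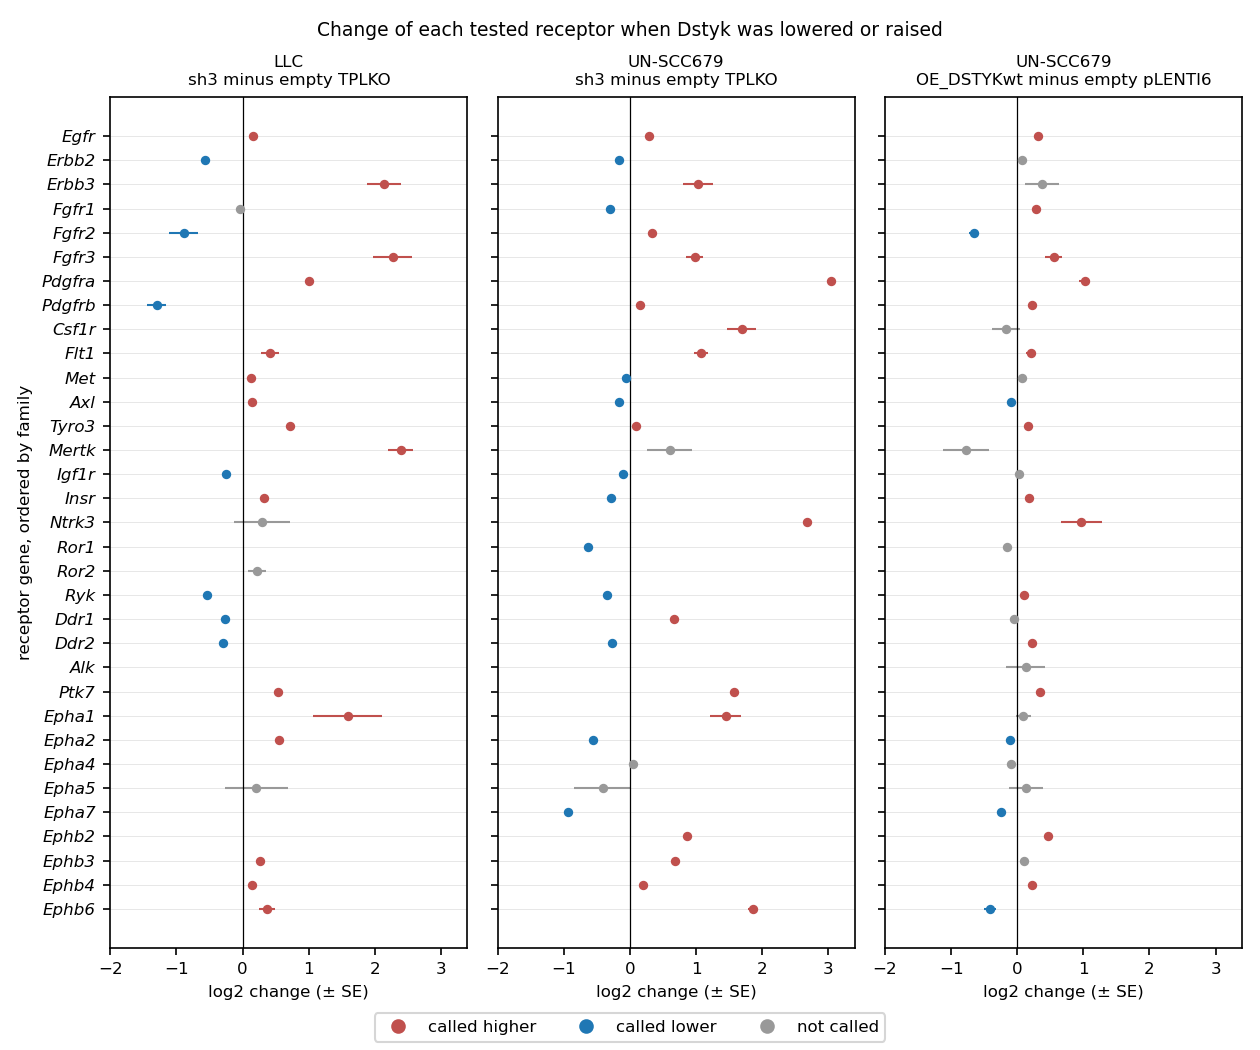
Log2 change of each tested receptor (points with SE; red, called higher; blue, called lower; grey, not called) in LLC with sh3, UN-SCC679 with sh3 and UN-SCC679 with OE_DSTYKwt, each against its own empty vector (3 libraries per group). Pdgfra lies right of 0 in all 3 panels, at 1.01, 3.04 and 1.02; Epha2 lies at 0.55 in the first and -0.56 in the second.

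The knockdown effects of the lines were then compared directly. These comparisons share no library. Of the 28 receptors called in UN-SCC679, 24 were also tested in LLC. Among the 26 receptors tested in both lines, 22 (84.6%) were called in both. These were 22 of the 23 called in LLC (95.7%) and 22 of those 24 in UN-SCC679 (91.7%). Their direction was the same for 15 (68.2%) and opposite for 7. Over all genes tested in both, 6814 of 12834 (53.1%) were called in both, and 60.9% of those had the same direction. They were 71.3% of the genes called in LLC and 81.5% of those called in UN-SCC679. Higher in both were Egfr, Erbb3, Fgfr3, Pdgfra, Flt1, Tyro3, Ptk7, Epha1, Ephb3, Ephb4 and Ephb6, and lower in both were Erbb2, Igf1r, Ryk and Ddr2. Fgfr2, Pdgfrb, Met, Axl, Insr, Ddr1 and Epha2 moved in opposite directions. A test of the difference between the effects (interaction, 12 libraries) called 24 of 33 receptors, against 59.9% of all 15399 genes, with 15 more positive in UN-SCC679 (31.9% of all genes) and 9 more negative (28.1%). Differences of at least 2-fold were called for 13 receptors (15.5% of all genes).

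All 7 receptors with opposite directions were among the 24. The interaction used the same libraries that gave those directions, so this was nearly fixed in advance and adds no separate evidence. Epha2 had the smallest adjusted p, with a difference of log2 -1.10 (UN-SCC679 effect minus LLC effect, SE 0.0275; adjusted p = 1.11e-14). Ddr1 differed by 0.94 (adjusted p = 6.91e-10), Pdgfrb by 1.46 (adjusted p = 2.04e-08), Fgfr2 by 1.23 (adjusted p = 1.47e-05), Insr by -0.59 (adjusted p = 2.32e-08), Axl by -0.31 (adjusted p = 1.73e-08) and Met by -0.18 (adjusted p = 3.51e-05). The fall of Met in UN-SCC679 was the weakest of these effects, as given above. Receptors that rose in both lines also differed in size: the rise was larger in UN-SCC679 for Pdgfra (difference 2.03; adjusted p = 2.44e-12), Ephb6 (1.5; adjusted p = 1.62e-08) and Ptk7 (1.05; adjusted p = 1.42e-10). It was larger in LLC for Tyro3 (-0.61; adjusted p = 5.77e-08), Fgfr3 (-1.29; adjusted p = 0.00138) and Erbb3 (-1.11; adjusted p = 0.00655), the last lost with limma on log2(TPM + 1) (adjusted p = 0.0514). For Egfr, Ddr2, Ephb4 and Epha1 no difference between the lines passed the test (log2 0.13, 0.03, 0.05 and -0.14).

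**Figure D4:**
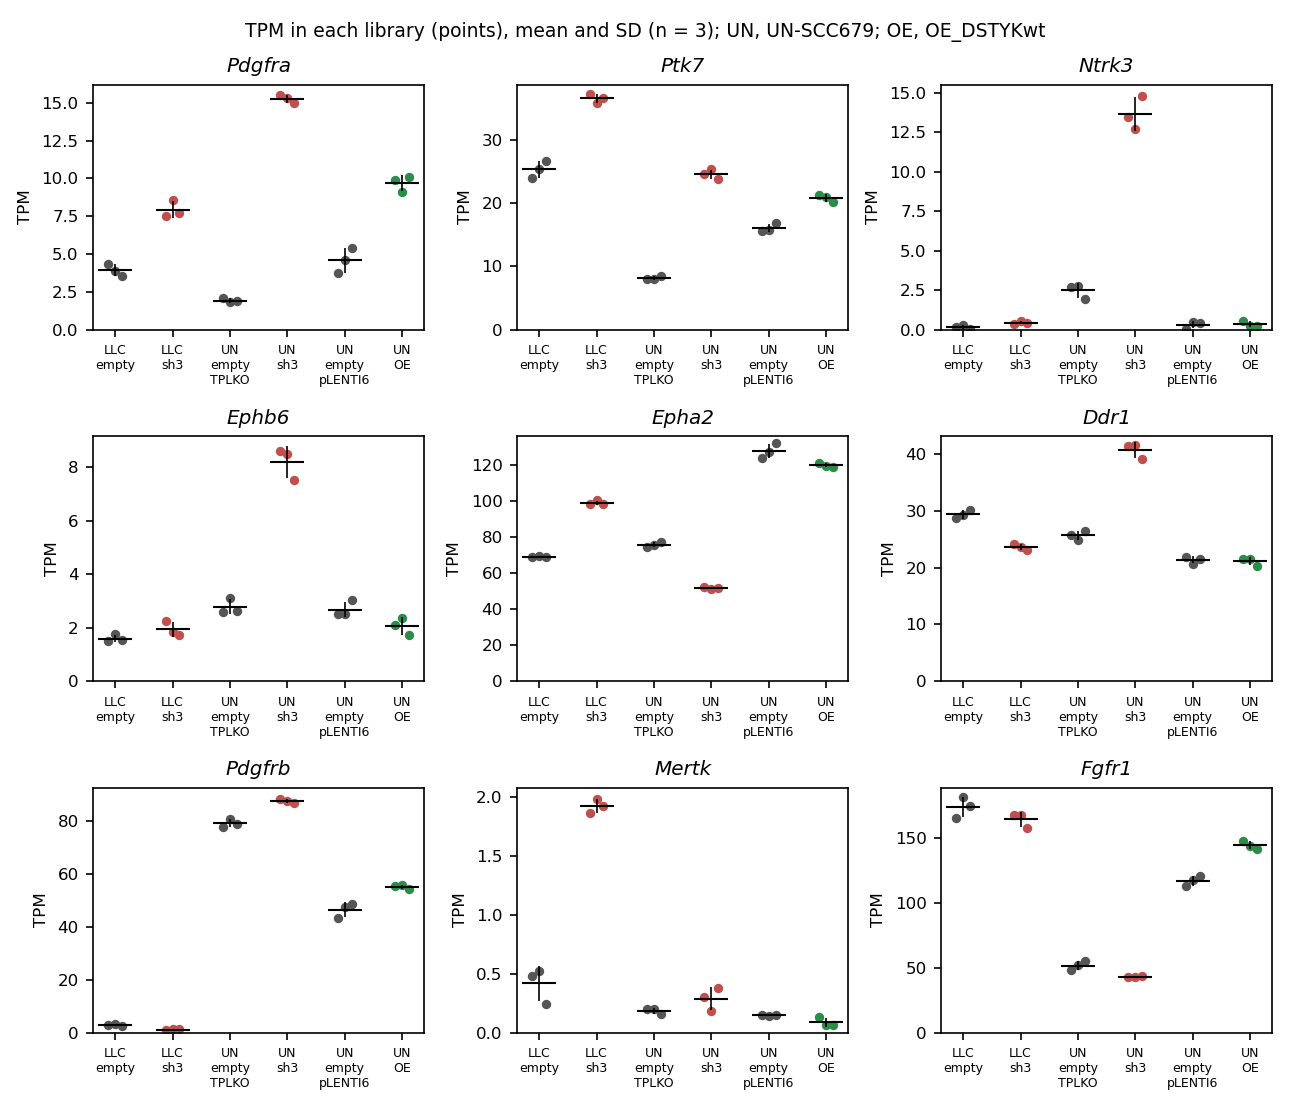
TPM of 9 receptors in each library of the 6 groups (points), with mean and SD (bars, n = 3). Pdgfra is higher in each altered group than in its own control, Epha2 and Ddr1 change in opposite directions with sh3 in the 2 lines, and the 2 UN-SCC679 control groups differ for Fgfr1, Ptk7 and Pdgfrb.

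In UN-SCC679 with OE_DSTYKwt, Pdgfra, Fgfr1, Ptk7, Ephb2, Egfr and Ephb4 rose, and Fgfr2, Ephb6 and Epha7 fell. Of 32 tested, 19 were called (29.7% of all 13975 genes), 14 higher (14.6%) and 5 lower (15.2%), with a median size of change of 0.20 against 0.11 over all genes. Pdgfra was the 1 receptor with a called change of at least 2-fold (2.54% of all genes). The groups did not overlap for 24 receptors (46.0% of all genes). The count was 12 without OE_DSTYKwt replicate 2 or without replicate 3, and 20 without replicate 1 of empty pLENTI6, the library that stood apart. These fits had 5 libraries in place of 6, and the shares of all genes they called are not given here. Limma on log2(TPM + 1) called 10, with Egfr, Fgfr3 and Ephb6 among those lost (adjusted p = 0.347, 0.0884 and 0.1). Epithelial markers summed to between 1005 and 1043 TPM in the controls and between 818 and 859 TPM with OE_DSTYKwt, and their part in the receptor changes was not tested. The 13 tested receptors without a call were Erbb2, Erbb3, Csf1r, Met, Mertk, Igf1r, Ror1, Ddr1, Alk, Epha1, Epha4, Epha5 and Ephb3.

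Pdgfra was at 14.3, 17.6 and 19.4 CPM with empty pLENTI6 and 35.2, 33.9 and 35.3 CPM with OE_DSTYKwt (log2 1.02, SE 0.0869; adjusted p = 2.99e-05). Fgfr1 went from 243, 239.6 and 247 to 299.6, 299 and 294 CPM (log2 0.29, SE 0.0251; adjusted p = 3.24e-05) while Fgfr2 fell from 7.94, 7.84 and 8.02 to 4.56, 5.43 and 5.22 CPM (log2 -0.65, SE 0.0745; adjusted p = 1.96e-04). No libraries overlapped for these 3 genes, although the Fgfr2 call was lost with protein-coding transcripts only (adjusted p = 0.0531). Ephb2 rose from 19.5 ± 0.821 to 27.0 ± 1.43 CPM (log2 0.47), Ptk7 from 39.3 ± 0.951 to 49.7 ± 1.13 CPM (log2 0.34), Egfr from 24.5 ± 2.0 to 30.3 ± 0.169 CPM (log2 0.31) and Ephb4 from 97.4 ± 2.04 to 113 ± 2.20 CPM (log2 0.22). Fgfr3, Pdgfrb and Tyro3 also rose (log2 0.55, 0.22 and 0.16), and Ephb6 and Epha7 fell (log2 -0.41 and -0.25). Calls of 7 receptors ended when single libraries were left out. Flt1, Ntrk3, Ryk, Insr, Axl, Ddr2 and Epha2 (log2 0.21, 0.97, 0.10, 0.18, -0.10, 0.22 and -0.11) each lost theirs without OE_DSTYKwt replicate 2 and also without replicate 3. Without OE_DSTYKwt replicate 1 Flt1, Ntrk3, Ryk and Insr lost theirs, without control replicate 2 Flt1, Ntrk3, Ryk and Axl, without control replicate 1 Flt1 and Ntrk3, and without control replicate 3 Ryk. Their adjusted p over the alternatives rose as far as 0.186, 0.835, 0.0899, 0.139, 0.158, 0.122 and 0.0658 in that order.

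The knockdown and the overexpression in UN-SCC679 had separate controls. The 19 receptors called in the overexpression were all among the 28 called in the knockdown (19 of 19 and 19 of 28), where only 3 of the 31 receptors tested in both were not called. Their direction was the same for 13 (68.4%) and opposite for 6. Over all genes tested in both, 77.5% of those called in the overexpression were also called in the knockdown. Of those called in the knockdown, 36.2% were also called in the overexpression. Of the genes called in both, 60.9% had the same direction. Higher in both were Egfr, Fgfr3, Pdgfra, Pdgfrb, Flt1, Tyro3, Ntrk3, Ptk7, Ephb2 and Ephb4, and lower in both were Axl, Epha2 and Epha7. Fgfr1, Insr, Ryk and Ddr2 were lower in the knockdown and higher in the overexpression, and Fgfr2 and Ephb6 the reverse. Egfr, Fgfr3, Pdgfra, Flt1, Tyro3, Ptk7 and Ephb4 were called higher in all 3 Dstyk comparisons, the LLC knockdown included, and no receptor was called lower in all 3. For Flt1, Tyro3 and Ephb4 this includes calls that leaving out a library ended. Egfr and Fgfr3 lost their calls with limma on log2(TPM + 1) in the UN-SCC679 knockdown (adjusted p = 0.0874 and 0.0958). They lost them with limma in the overexpression too (adjusted p = 0.347 and 0.0884). Of the receptors called higher in all 3, only Pdgfra and Ptk7 kept their calls in every alternative. Shares over all genes were taken for pairs of comparisons and not for all 3, so these 3-way lists are a description only.

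The promoters of Pdgfra and Ptk7, the receptors with the largest log2 changes in the UN-SCC679 knockdown among those called higher in all 3 comparisons, are shown for context, with Epha2, which moved in opposite directions in the lines. These are again the 250 bases before the RefSeq start on GRCm38.p6 (chr5:75152001-75152250, plus strand; chr17:46629505-46629754, minus strand; chr4:141300971-141301220, plus strand), 5′ to 3′, with GC boxes and AP-1 motifs in capitals:
Pdgfra: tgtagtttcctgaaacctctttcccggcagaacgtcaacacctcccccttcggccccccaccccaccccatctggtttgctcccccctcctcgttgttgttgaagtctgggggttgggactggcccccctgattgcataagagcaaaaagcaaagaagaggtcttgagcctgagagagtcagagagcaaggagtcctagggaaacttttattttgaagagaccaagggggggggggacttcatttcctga
Ptk7: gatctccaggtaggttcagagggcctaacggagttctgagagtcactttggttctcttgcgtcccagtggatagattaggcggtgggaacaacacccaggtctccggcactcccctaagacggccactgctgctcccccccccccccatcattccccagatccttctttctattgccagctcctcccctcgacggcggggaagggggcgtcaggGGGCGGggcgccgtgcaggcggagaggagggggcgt
Epha2: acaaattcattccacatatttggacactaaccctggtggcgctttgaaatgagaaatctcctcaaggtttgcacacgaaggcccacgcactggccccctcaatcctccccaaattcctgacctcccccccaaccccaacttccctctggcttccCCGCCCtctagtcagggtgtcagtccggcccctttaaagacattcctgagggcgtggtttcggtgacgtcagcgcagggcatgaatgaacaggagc
The Pdgfra window held no GC box and 4 CpG, the Ptk7 window 1 GC box and 14 CpG, and the Epha2 window 1 GC box and 9 CpG. None of the 3 windows held an AP-1 motif, or TATAAA on either strand, which 12.4% of all windows held. A missing match says that these letters are not in the window and nothing of factors that bind there.

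The UN-SCC679 control populations differed from each other. With empty TPLKO and doxycycline against empty pLENTI6, 26 of 32 tested receptors were called (68.7% of all 14080 genes), 12 higher with empty TPLKO (33.3%) and 14 lower (35.4%), and 7 by at least 2-fold (14.4%). The deposited tables also name the cells of these groups differently, so vector, doxycycline and any difference between the cell populations or library sets cannot be told apart. Fibroblast markers summed to between 1716 and 1836 TPM with empty pLENTI6 and between 5158 and 5404 TPM with empty TPLKO. The other way, mesenchymal markers summed to between 6083 and 6163 TPM with empty pLENTI6 and between 3631 and 3718 TPM with empty TPLKO, and epithelial markers to between 1005 and 1043 TPM and between 543 and 568 TPM. Vim, a mesenchymal marker, differed little, at 2762 TPM with empty pLENTI6 and 2851 TPM with empty TPLKO. The part of these markers in the receptor differences was not tested. Ntrk3 was at 0.172, 0.350 and 0.431 CPM with empty pLENTI6 and 4.11, 3.91 and 4.12 CPM with empty TPLKO (log2 3.65). Fgfr1 was at 238, 237 and 243 against 95.7, 99.2 and 105 CPM (log2 -1.26) and Fgfr2 at 7.79, 7.74 and 7.91 against 15.2, 16.6 and 15.5 CPM (log2 1.01). The FGF receptors thus differed in opposite directions here too. Pdgfra was at 14, 17.4 and 19.2 against 7.26, 6.51 and 6.65 CPM (log2 -1.31), Ephb3 at 33.1, 31.3 and 32.8 against 80.6, 80 and 83.9 CPM (log2 1.33) and Epha1 at 2.72, 2.65 and 2.29 against 1.03, 0.637 and 0.918 CPM (log2 -1.57). Axl, the most abundant receptor of this line, was at 1099 ± 23.7 CPM with empty pLENTI6 and 677 ± 12.5 CPM with empty TPLKO (log2 -0.70), and Alk was at 0.438 ± 0.0574 and 0.0926 ± 0.0816 CPM. These controls also enter the Dstyk comparisons, where the log2 changes of Fgfr1, Axl and Ephb3 with sh3 and with OE_DSTYKwt were -0.30 and 0.29, -0.17 and -0.10, and 0.69 and 0.11. The Igf1r call (log2 -0.18) was lost without replicate 3 of empty TPLKO or replicate 2 or 3 of empty pLENTI6 (adjusted p up to 0.666 over the alternatives).

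Receptor genes also make transcripts that code for shorter proteins, described here for Egfr, Flt1 and Ntrk3. The genes were picked after their values were seen; values are estimates that share reads among transcripts of a gene, and with 3 libraries against 3 no exact permutation test can go below p = 0.10, so none was run. In LLC the full-length Egfr-201 (1210 codons) was at 9.41, 9.27 and 9.14 TPM with empty TPLKO and 10, 8.95 and 9.39 TPM with sh3. Egfr-202, which codes for 655 amino acids and shares 15 of the 28 coding exons, went from 2.69, 1.57 and 2.26 to 5.64, 4.89 and 5.44 TPM. The groups overlapped for the long form and not for the short one. In UN-SCC679 with OE_DSTYKwt the long form was the higher one, at 4.84, 4.63 and 4.82 TPM against 3.24, 3.85 and 3.92 TPM, and Egfr-202 was at 1.37 ± 0.342 against 1.37 ± 0.300 TPM (SD, n = 3).

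Flt1 transcripts moved in opposite directions in LLC. Flt1-202, the full receptor of 1333 codons, went from 0.436, 0.434 and 0.395 TPM to 0.175, 0.164 and 0.210 TPM with sh3, and Flt1-203, with 688 codons, from 0.251, 0.215 and 0.185 TPM to 0.674, 0.690 and 0.763 TPM. The long form was lower and the short form higher in every library, while the gene as a whole was at log2 0.41. A soluble form of Flt1 that binds VEGF without signalling is known, and the 2 forms here share 12 of 30 coding exons. In UN-SCC679 with sh3 both forms were higher, at 1.11 ± 0.0856 against 0.556 ± 0.0795 TPM and at 0.715 ± 0.114 against 0.308 ± 0.115 TPM.

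The Ntrk3 RNA of UN-SCC679 was mostly not that of the full receptor. With sh3, Ntrk3-202 (612 codons, 12 coding exons in common with the 17 of Ntrk3-201) was at 4.51, 4.78 and 4.64 TPM, against 0.641, 0.666 and 0.900 TPM with empty TPLKO. Ntrk3-201 (825 codons) was at 0.900, 0.679 and 0.798 and 0.117, 0.128 and 0.120 TPM in the same groups. Transcripts with at least 80% of the longest coding sequence gave 8.27% ± 1.04 of the Ntrk3 TPM with sh3, shorter coding ones 39.7% ± 7.86, and transcripts not annotated as protein-coding 52.1% ± 7.29 (SD, n = 3). Truncated forms of this receptor without the kinase domain are known. Both long and short forms were higher with sh3. For Pdgfra the full-length share was 88.4% ± 1.70 with sh3, and its full-length transcripts were at 1.58 ± 0.146 and 13.5 ± 0.362 TPM without and with sh3. Erbb2 RNA was split about evenly in UN-SCC679 with empty TPLKO, with Erbb2-201 (1256 codons) at 12.8 ± 0.745 TPM and the processed transcript Erbb2-202 at 12 ± 0.305 TPM. In LLC the coding Erbb2-201 went from 6.18 ± 1.03 to 3.60 ± 0.372 TPM with sh3.

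**Figure D5:**
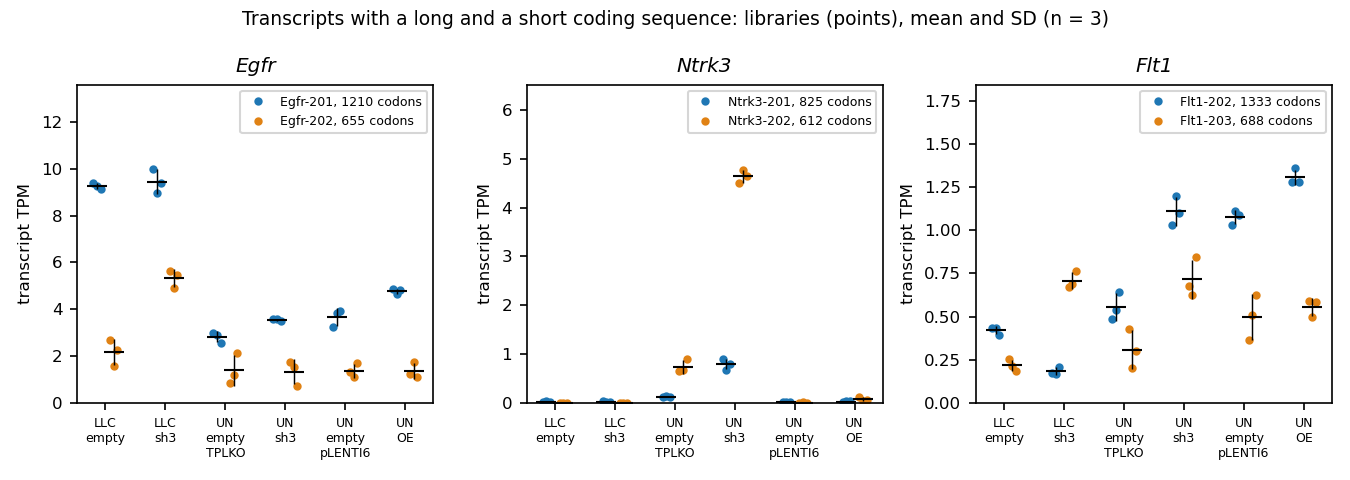
TPM of a long and a short coding transcript of Egfr, Ntrk3 and Flt1 in each library (points) of the 6 groups, with mean and SD (bars, n = 3). In LLC with sh3 the short Egfr and Flt1 forms are higher and the long Flt1 form is lower; in UN-SCC679 with sh3 the short Ntrk3 form is the higher one.

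Ligands of these receptors moved in both directions. Of 61 ligand genes, 43 were tested in LLC, where 22 rose and 9 fell; 44 in the UN-SCC679 knockdown, where 23 rose and 14 fell; and 43 in the overexpression, where 11 rose and 13 fell. The called shares were 72.1%, 84.1% and 55.8% of the ligands tested, against 72.6%, 63.8% and 29.7% of all genes tested, so that the LLC share was near that of all genes. Their median log2 changes were 0.34, 0.29 and -0.06, against 0.010, 0.011 and 0.003 over all genes. In LLC, Angpt1, the ligand of Tek, fell from 63.2 ± 2.97 to 13.8 ± 0.653 CPM, while Hbegf, a ligand of Egfr, rose from 16.9 ± 0.911 to 58.3 ± 0.680 CPM, Fgf10, a ligand of Fgfr2, from 5.63 ± 0.671 to 22.1 ± 0.648 CPM and Agrn, which acts through Musk, from 156 ± 4.45 to 313 ± 5.58 CPM. In UN-SCC679 with sh3, Ptn, a ligand linked to Alk, rose from 113 ± 3.83 to 258 ± 8.70 CPM and Wnt5a, the ligand of Ror1, Ror2 and Ryk, from 5.92 ± 0.624 to 28.3 ± 0.621 CPM. Artn, a GDNF family ligand, fell from 69.5 ± 1.72 to 28.1 ± 0.875 CPM, Efnb2, the ligand of B-type ephrin receptors, from 81.1 ± 0.466 to 40 ± 0.744 CPM and Vegfc, the ligand of Flt4, from 12 ± 1.4 to 4.35 ± 0.290 CPM. With OE_DSTYKwt, Ptn and Wnt5a rose as well, from 84.8 ± 2.35 to 133 ± 2.26 CPM and from 7.07 ± 0.627 to 17.1 ± 0.272 CPM, and Pdgfb, a ligand of both PDGF receptors, fell from 12.6 ± 0.729 to 4.91 ± 0.220 CPM. Several of these ligands have receptors that were near 0 here, among them Tek, Musk, Alk, Flt4 and Ret.

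Of the coreceptors, which present ligands, 7 rose and 3 fell of 12 tested in LLC, 9 rose and 1 fell of 14 in UN-SCC679, and 3 rose and 2 fell of 13 in the overexpression. The called shares were 83.3%, 71.4% and 38.5%, against 72.6%, 63.8% and 29.7% of all genes. All genes tested divided into 36.2% higher and 36.4% lower in LLC, 31.8% and 32.0% in the UN-SCC679 knockdown, and 14.6% and 15.2% in the overexpression. The coreceptors had median log2 changes of 0.24, 0.56 and 0.01. Sort1, a partner of neurotrophin receptors and a sorting receptor, rose from 2.64 ± 0.107 to 16.8 ± 0.867 CPM in LLC and from 24.3 ± 1.42 to 59.9 ± 0.410 CPM in UN-SCC679. Gpc1, a heparan sulfate proteoglycan that binds FGFs, fell from 367 ± 5.41 to 276 ± 2.98 CPM and from 683 ± 2.84 to 291 ± 5.72 CPM. Nrp2, a VEGF coreceptor, rose from 215 ± 4.42 to 333 ± 2.01 CPM in LLC, where Sdc4 fell from 217 ± 3.2 to 164 ± 4.08 CPM, and the syndecan gene Sdc1 rose from 55.4 ± 1.87 to 144 ± 1.95 CPM in UN-SCC679 with sh3. With OE_DSTYKwt, Gfra2, a coreceptor of Ret, fell from 5.12 ± 0.405 to 2.55 ± 0.225 CPM, Nrp1 fell from 21.6 ± 2.12 to 14.5 ± 0.160 CPM and Sdc2 rose from 113 ± 0.927 to 131 ± 1.17 CPM.

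Adaptors and effectors moved in both directions, as all genes did: 17 rose and 14 fell of 35 tested in LLC, 13 and 12 of 34 in the UN-SCC679 knockdown, and 8 and 7 of 33 in the overexpression, with medians of 0.05, 0.06 and -0.01. The called shares were 88.6%, 73.5% and 45.5%, against the same 72.6%, 63.8% and 29.7% of all genes. In LLC, Plcg1, which makes second messengers downstream of many receptors, rose from 80.2 ± 2.34 to 163 ± 1.81 CPM and Dok4 from 4.76 ± 0.466 to 11.4 ± 1.09 CPM, and the adaptor genes Crk and Sh2b1 fell from 205 ± 2.15 to 128 ± 1.39 CPM and from 47.6 ± 0.612 to 27.2 ± 0.485 CPM. In UN-SCC679 with sh3, Irs2, the insulin receptor substrate, fell from 271 ± 5.60 to 96.3 ± 1.64 CPM, and Shc1 and the PI3K subunit gene Pik3r3 rose from 147 ± 2.93 to 251 ± 2.13 CPM and from 50.9 ± 1.34 to 99.3 ± 1.3 CPM. With OE_DSTYKwt, Pik3r1 rose from 116 ± 6.46 to 185 ± 2.17 CPM, Shc4 from 9.76 ± 0.558 to 13.1 ± 0.201 CPM, Src fell from 114 ± 3.28 to 96.6 ± 1.41 CPM and Gab2 from 20.7 ± 1.97 to 15.5 ± 0.442 CPM.

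Of the negative regulators of receptor signalling, 8 rose and 12 fell of 27 tested in LLC, 16 rose and 7 fell of 28 in the UN-SCC679 knockdown, and 3 rose and 7 fell of 26 in the overexpression. The called shares were 74.1%, 82.1% and 38.5%, the first near the 72.6% of all genes in LLC, the others against 63.8% and 29.7%. The medians were -0.06, 0.16 and -0.04 in this order. In LLC, Grb10, an inhibitor of the insulin and IGF receptors, fell from 154 ± 4.76 to 108 ± 2.05 CPM, Spred2 from 157 ± 1.12 to 121 ± 3.09 CPM, Lrig1 from 252 ± 1.86 to 199.6 ± 5.69 CPM and the phosphatase gene Ptprk from 34.3 ± 0.882 to 22.4 ± 0.722 CPM, and Lrig3 rose from 6.48 ± 0.194 to 13.8 ± 1.18 CPM. Spry1, a feedback inhibitor of ERK signalling, fell in both UN-SCC679 experiments, from 22.2 ± 1.14 to 8.32 ± 0.393 CPM with sh3 and from 23.8 ± 1.14 to 8.49 ± 0.242 CPM with OE_DSTYKwt. Ptprj, a receptor phosphatase gene, rose in both, from 41.9 ± 1.89 to 72.2 ± 1.87 CPM and from 21 ± 0.596 to 24.2 ± 0.283 CPM, and Ptprf fell from 645 ± 3.56 to 467 ± 6.97 CPM with sh3. Ptprk and Lrig1 fell with OE_DSTYKwt, from 159 ± 7.13 to 119 ± 1.17 CPM and from 64.0 ± 2.50 to 53.1 ± 1.3 CPM. Named genes of these 4 lists are the called ones with the smallest adjusted p and the largest rise and fall in each comparison.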

How the data were processed

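For each transcript the authors deposited estimated counts and effective lengths, made with kallisto and mouse build mm10, per the submitters' processing notes; versions were not given in the sources used here. The estimated counts were not normalized by the authors, and kallisto divides reads among similar transcripts. Of 118489 transcripts, 116816 matched GENCODE release M21 (GRCm38, also called mm10). The 1673 without a match held 0.515% to 0.593% of the counts and were left out.

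Counts were summed per gene and rounded. TPM was recomputed from counts and effective lengths; it is used for levels, and short noncoding transcripts raise it. Tests used edgeR 4.0.16 in R 4.3.3: TMM scaling, the default filter (minimum count 10, total 15), the quasi-likelihood test and Benjamini-Hochberg adjustment over all tested genes, with the 6 libraries of a comparison (12 for the interaction). CPM is scaled within a comparison, so a library can have slightly different values in different comparisons. Standard errors come from the F statistic. A gene was called at an adjusted p under 0.05. Between 40525385 and 46528071 counts per library set the precision. Groups came from the sample titles, since the phenotype label does not separate the arms.

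Named receptors are those called with at least a 2-fold difference and expressed in 1 of the groups, beside others that complete a family; of each pathway list, the 3 called genes with the smallest adjusted p and the largest rise and fall at a mean log2 CPM of at least 3. Members, lists and rules were chosen with earlier results of these data known. Alternatives were DESeq2 1.42.0, scaling by library size, other filters, limma 3.58.1 on log2(TPM + 1), a replicate block, protein-coding transcripts only, all 18 libraries in 1 fit and leaving out each library. The procedure was tested on simulated counts. Promoter sequences are from RefSeq on GRCm38.p6; those of 8 receptors were not used here.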

Additional observations from a re-analysis of the deposited data

Results flagged for a closer look

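The effect of sh3 differed between UN-SCC679 and LLC for 24 of 33 tested receptors in the interaction test (edgeR, adjusted p under 0.05, 12 libraries). In the same test 59.9% of all 15399 genes were called, 31.9% positive and 28.1% negative. As the log2 effect in UN-SCC679 minus that in LLC, 15 were positive: Erbb2 0.42, Fgfr2 1.23, Pdgfra 2.03, Pdgfrb 1.46, Csf1r 3.02, Flt1 0.68, Igf1r 0.15, Ntrk3 2.39, Ryk 0.20, Ddr1 0.94, Ptk7 1.05, Epha3 1.94, Ephb2 1.78, Ephb3 0.43 and Ephb6 1.5. The other 9 were negative: Erbb3 -1.11, Fgfr1 -0.26, Fgfr3 -1.29, Met -0.18, Axl -0.31, Tyro3 -0.61, Mertk -1.80, Insr -0.59 and Epha2 -1.10.

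Epha3 rests on few counts, with 26 and 20 in all 3 LLC libraries without and with sh3 and 11 and 32 in UN-SCC679, and lost its call in 14 of 19 alternatives. Csf1r had 10 and 4 counts in LLC against 101 and 331 in UN-SCC679. Ephb2, near 0 in LLC, lost its call without LLC control replicate 3 (adjusted p = 0.135), and Igf1r lost its own without LLC control replicate 1 or UN-SCC679 control replicate 1 or 3 (adjusted p up to 0.132 over the alternatives).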

How the results depend on the processing

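The count of called receptors stayed within 1.5 times its value in every alternative for the knockdowns, the lines, the control populations and the interaction. In the overexpression, 19 calls became 10 with limma on log2(TPM + 1) and 12 without OE_DSTYKwt replicate 2 or replicate 3. Leaving out each library in turn gave 22 to 23 called receptors in LLC, 26 to 28 in the UN-SCC679 knockdown, 12 to 20 in the overexpression, 30 to 31 between the lines, 25 to 27 between the control populations and 22 to 24 for the interaction. Shares of all genes called in these fits are not given here. Met in UN-SCC679 with sh3 came to log2 0.00 (adjusted p = 0.945) when scaled by library size alone, which was the 1 reversal of a called receptor. Of the called receptors, 15 of 23 in LLC, 21 of 28 in the UN-SCC679 knockdown and 8 of 19 in the overexpression were called in every alternative; the cause of the losses was not tested.

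With a minimum of 0.5 or 3 TPM, LLC with empty TPLKO expressed 21 or 16 receptors and UN-SCC679 with empty TPLKO 26 or 21; with protein-coding transcripts only, these groups expressed 19 and 23. Replicate numbers did not pair the libraries: deviations of same-numbered libraries correlated between -0.08 and 0.10. With a replicate block, 23, 28 and 17 receptors were called in the 3 Dstyk comparisons, 30 between the lines, 26 between the control populations and 24 for the interaction. The shares of all genes called with the block are not given here either. At this depth, receptors with few counts (Alk, Csf1r, Epha1, Epha3, Erbb3, Mertk) have wide errors.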
